A study of Mus musculus with 6 samples.

Results

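The 41 genes described here encode subunits of the receptors for glutamate, GABA and glycine, which are transmitters of synapses in the retina. They were taken by symbol from a list of receptor genes, and all 41 were found among the 55376 genes of the count table. The list holds 4 AMPA, 5 kainate, 7 NMDA, 1 delta and 6 metabotropic glutamate receptor genes, 8 GABA-A, 3 GABA rho and 2 GABA-B receptor genes, and 5 glycine receptor genes. Each of the 41 passed the filter on low counts and was tested, among 18547 genes tested in all.

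Whole retinas from 3 wild-type (WT) and 3 Wfs1-KO mice, all 240 days old, were profiled by RNA-seq. Retina is the tissue named in the sample titles and the study's results, whereas its RNA-seq methods name freshly enucleated eyes. Wfs1 encodes wolframin, a protein of the endoplasmic reticulum membrane whose loss causes Wolfram syndrome, and the mutants carried the Wfs1exon8del allele in every cell. The labels give C57x129 as the strain of both genotypes, whereas the study's methods name a C57BL/6J background. Each library was made from whole tissue, so that fewer cells of a type and less RNA per cell cannot be told apart. The methods state that the retinas of a group came from different mice, and which of them shared a litter was not given in the sources used here. The comparison asks whether the transcripts of the retina's transmitter receptors differ when wolframin is missing.

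Ionotropic receptors are ligand-gated channels built from several subunits, so that the mix of subunits sets the ions that pass and how fast the channel closes. AMPA, kainate and NMDA receptors are opened by glutamate and excite the cell, whereas GABA-A, rho and glycine receptors conduct chloride and mostly inhibit it. Metabotropic glutamate receptors and GABA-B receptors act through G proteins, often on the presynaptic terminal. In the retina, OFF bipolar cells answer photoreceptor glutamate through AMPA and kainate receptors, ON bipolar cells through the metabotropic receptor encoded by Grm6, and amacrine cells return GABA and glycine to bipolar terminals and ganglion cells.

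The libraries differed in ways that touch the results below. Total counts ranged from 17916885 in WT replicate 3 to 101334381 in Wfs1-KO replicate 1, so that 3 counts were worth between 0.0296 and 0.167 CPM (counts divided by the library size after TMM scaling, so that libraries can be compared). Wfs1 itself was at 64.9, 61.4 and 69.9 CPM in WT replicates 1, 2 and 3 and at 9.63, 0.900 and 11.5 CPM in the Wfs1-KO replicates, so every mutant retina was below every WT retina. The Wfs1-KO replicate 2 library stood apart, with a mean correlation of 0.918 to the other 5 libraries against 0.962 to 0.971 for each of those. In that library the summed markers of blood were at 481 CPM against 12.3 to 41.3 CPM in the other 5, with 6 of 7 genes above all of them. Markers of microglia and macrophages were at 343 CPM against 47.1 to 72.7 CPM, with 10 of 11 genes above. Pigment epithelium markers were at 428 CPM against 62.0 to 180 CPM, with 8 of 12 genes above, and stromal markers at 203 CPM against 15.5 to 42.1 CPM, with 6 of 8 above. Up to 3 of the 8 stromal and 2 of the 7 blood genes were at 0 in a library, and 0 of the microglial and pigment epithelium genes. The summed rod markers were at 57700 CPM, below the 69500 to 77800 CPM of the other 5. Single rod genes went both ways, with 4 of 10 below all of the other 5 and 3 above. The part of these markers in the receptor values was not tested, and the genotype values of the genes given in full are shown with and without that retina. WT replicate 3 also differed from the rest in sex, with 0.227 CPM of Xist and 64.5 CPM of Ddx3y, and 4 of the 41 genes (Gria3, Gabra3, Glra2 and Glra4) lie on the X chromosome.

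Levels per length, in RPKM (CPM per kilobase of exon), spanned 195-fold among the 41 genes in WT retinas. The median of the 41 was 4.52 RPKM, beside 4.51 RPKM over all genes tested, with 13 of the genes above 10 RPKM and 7 under 1 RPKM. The highest was Gabrr1, the rho1 subunit of the GABA channels of bipolar terminals, at 48.8 ± 2.47 RPKM (SD, n = 3). It was followed by Gabbr1, the GABA-binding subunit of the GABA-B receptor, at 36.9 ± 0.709 RPKM (SD, n = 3), and by Gabrr2, the rho2 subunit, at 33.2 ± 0.612 RPKM (SD, n = 3). The kainate subunits Grik5 and Grik1 and the glycine receptor beta subunit Glrb came next, with 27.8 ± 7.36, 27.5 ± 1.86 and 27.0 ± 5.75 RPKM (SD, n = 3 each). At the low end were Gabra5 at 0.250 ± 0.0201 RPKM and Grm3 at 0.419 ± 0.162 RPKM (SD, n = 3 each). The order is mostly not resolved between neighbours, since the WT ranges of 37 of the 40 neighbouring pairs overlapped. The 3 exceptions set Gabrr1 above Gabbr1, Gabbr1 above Gabrr2, and Glrb above Gabbr2. Summed over a family, the 3 rho genes gave 86.1 to 93.4 RPKM in WT retinas, the 8 GABA-A genes 28.4 to 44.1 RPKM and the 5 kainate genes 54.6 to 65.3 RPKM.

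**Figure D1:**
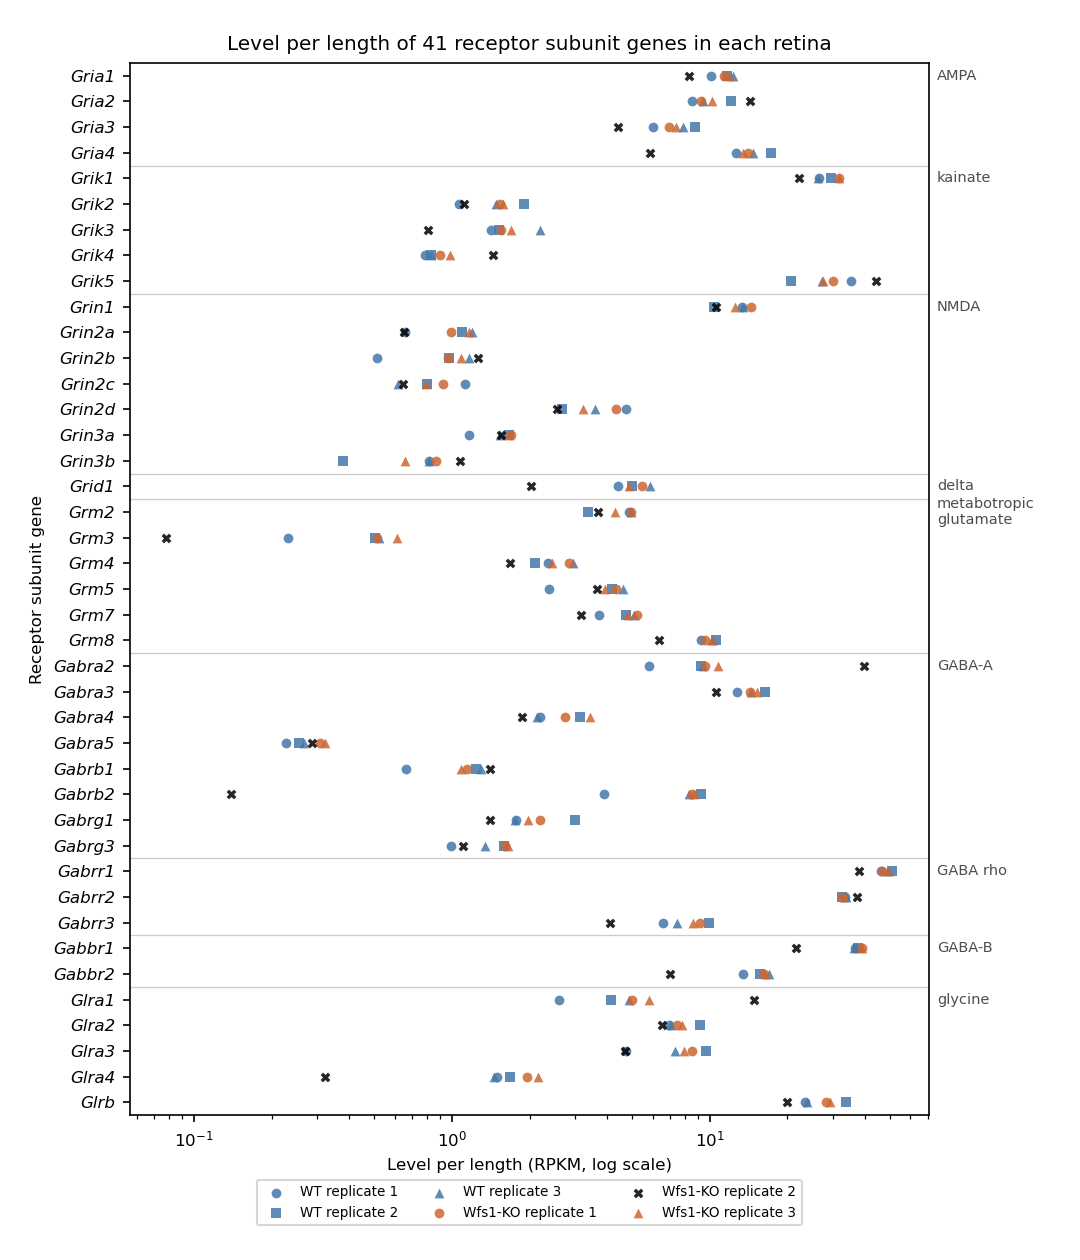
Level per length of the 41 receptor subunit genes in each retina, in RPKM on a log scale, with 1 symbol per retina and the families set apart by lines. The black cross of Wfs1-KO replicate 2 lies away from the other 5 symbols for Gabra2, Glra1, Gabrb2, Grm3 and Glra4, while the rho genes Gabrr1 and Gabrr2 lie among the highest in all 6 retinas.

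No receptor gene passed the threshold in the comparison of genotypes. With all 6 retinas, 0 of the 41 genes had an adjusted p under 0.05 in edgeR (quasi-likelihood test, adjusted over all genes by the method of Benjamini and Hochberg), beside 2 of 18547 genes, or 0.0108%, overall. At an unadjusted p under 0.05 there was 1 of the 41, Glra1, which was higher in Wfs1-KO retinas, beside 2.24% of all genes higher and 0.566% lower. The adjusted p of the 41 genes lay between 0.979 and 0.995 with edgeR. Wfs1, the mutated gene, did not pass in this fit either, with a log2 fold change of -3.15 ± 0.77 (SE, adjusted p = 0.979, edgeR's test). The 0 of 41 in this fit therefore does not show that the receptor genes are unchanged. The tool named in the methods, DESeq2, also passed 0 of the 41, beside 0.246% of all genes, with Gabra2 and Glra1 at an unadjusted p under 0.05 (smallest adjusted p = 0.818 with DESeq2). Of the 41 genes, 16 had a positive and 25 a negative log2 fold change, with a median of -0.06 and quartiles of -0.13 and 0.16. The median over all genes tested was 0.02, with quartiles of -0.16 and 0.32 and 52.8% positive. The groups of retinas did not overlap for 4 of the 41 genes, Grik4, Gabra2, Gabra5 and Glra1, all higher in the mutants, beside 5.01% of all genes higher and 3.94% lower.

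Without Wfs1-KO replicate 2 the directions changed and the call did not. In that fit 0 of the 41 genes passed in edgeR's test (adjusted p from 0.962 to 0.999), beside 0.125% of the 19178 genes tested, and DESeq2 passed 0 of the 41 beside 0.475% of all genes. Wfs1 did pass in this fit, with a log2 fold change of -2.64 ± 0.16 (SE, adjusted p = 2.84e-05, edgeR's test). At an unadjusted p under 0.05 edgeR gave 0 of the 41, beside 2.80% of all genes higher and 2.39% lower, and DESeq2 gave 1, Glra1. Positive log2 fold changes were then seen for 31 of the 41 genes and negative ones for 10, with a median of 0.09 beside -0.00038 over all genes. The 2 remaining mutant retinas lay above all 3 WT retinas for 9 genes (Grik1, Grik4, Grin3a, Gabra2, Gabra5, Gabrg3, Gabbr1, Glra1 and Glra4) and below them for 0, beside 11.4% of all genes above and 11.0% below. In WT replicate 1, 34 of the 41 genes were below the mean of the other 5 retinas, beside 57.6% of all genes tested. With WT replicate 1 left out as well, 21 genes were positive and 20 negative, with a median of 0.0005 beside -0.0003 over all genes and 2 retinas per genotype. With WT replicate 2 or 3 left out in its place, 31 and 32 genes were positive, with medians of 0.19 and 0.16. These fits were added after values were seen.

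The intervals show the sizes these retinas could resolve. With all 6 retinas the 95% interval of the log2 fold change lay inside ±1 for 29 of the 41 genes, and without Wfs1-KO replicate 2 for 38. Intervals that excluded a change of 1.5-fold in either direction numbered 7 and 23. The common dispersion was 0.128 with all 6 retinas and 0.0322 without that retina.

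**Figure D2:**
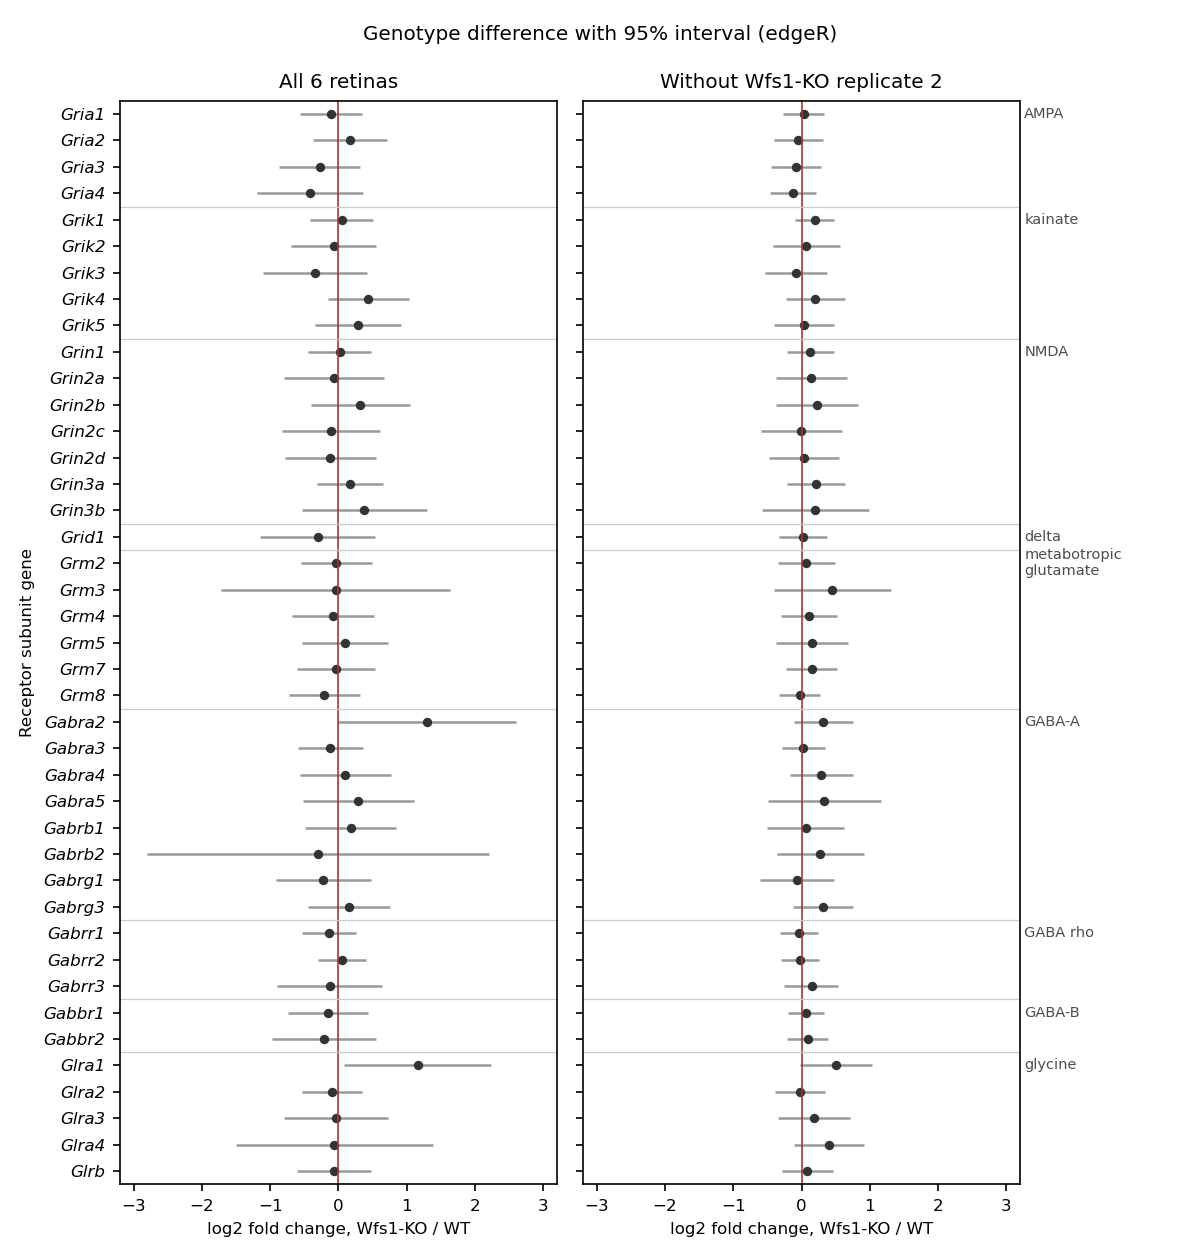
Log2 fold change of Wfs1-KO over WT for the 41 genes (points) with its 95% interval from edgeR (bars), with all 6 retinas on the left and without Wfs1-KO replicate 2 on the right. The widest interval on the left, that of Gabrb2 from -2.81 to 2.21, is -0.36 to 0.91 on the right, and on the left only Glra1 has an interval, 0.08 to 2.24, that does not contain 0.

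The values that follow are in CPM, in the order of replicates 1, 2 and 3 of each genotype. Among the AMPA receptor genes, which encode the fast glutamate channels, Gria4 had the highest level per length. Gria4 (chromosome 9 of mm10, 4417896 to 4796234, minus strand) was at 79.5, 109 and 92.5 CPM in WT and at 88.0, 36.9 and 84.4 CPM in Wfs1-KO retinas. Wfs1-KO replicate 2 was the lowest of the 6 and the other mutant retinas lay within the WT range. Its log2 fold change was -0.42 ± 0.33 (SE), and -0.12 ± 0.15 (SE) without that retina. The X-linked Gria3 was at 32.8, 47.6 and 42.8 CPM in WT and at 37.8, 23.9 and 40.3 CPM in the mutants, again lowest in Wfs1-KO replicate 2 and otherwise within the WT range. Its log2 fold change of -0.27 ± 0.25 (SE) became -0.08 ± 0.17 (SE) without that retina. Gria2, whose edited subunit makes the channel almost impermeable to calcium, went the other way in Wfs1-KO replicate 2, with 150 CPM there and 89.8 to 126 CPM elsewhere. Gria1 was lowest there, at 47.9 CPM against 58.6 to 71.0 CPM. Both had intervals inside ±1, and both changed sign without that retina. For Gria2 the log2 fold change went from 0.17 ± 0.23 (SE) to -0.05 ± 0.16 (SE), and for Gria1 from -0.11 ± 0.20 (SE) to 0.03 ± 0.14 (SE).

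In the kainate family Grik1 to Grik3 can form channels alone, while Grik4 and Grik5 need a partner from that group. Grik5 (chromosome 7, 25009849 to 25072292, minus strand) was at 133, 78.0 and 102 CPM in WT and at 113, 167 and 103 CPM in mutant retinas. The highest retina was Wfs1-KO replicate 2 and the lowest WT replicate 2, and the remaining mutant values lay between WT values. Its log2 fold change was 0.29 ± 0.27 (SE), and 0.04 ± 0.20 (SE) without Wfs1-KO replicate 2. Grik1 (chromosome 16, 87895900 to 88290258, minus strand), which serves OFF bipolar cells, was at 113, 125 and 111 CPM in WT and at 134, 93.4 and 134 CPM in the mutants. Mutant replicates 1 and 3 were above every WT retina and mutant replicate 2 below every one, so its log2 fold change was 0.05 ± 0.20 (SE) with all retinas and 0.19 ± 0.13 (SE) without replicate 2.

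Grik4 (chromosome 9, 42518135 to 42944493, minus strand) was at 4.70, 4.94 and 4.94 CPM in WT and at 5.36, 8.60 and 5.88 CPM in Wfs1-KO retinas. Every mutant retina was above every WT retina, with the smallest gap between 4.94 and 5.36 CPM. The log2 fold change of Grik4 was 0.44 ± 0.26 (SE, adjusted p = 0.979, edgeR's quasi-likelihood test), and 0.20 ± 0.20 (SE) without Wfs1-KO replicate 2. Grik3 was at 12.8, 13.6 and 19.7 CPM in WT and at 13.9, 7.25 and 15.1 CPM in the mutants, with a log2 fold change of -0.34 ± 0.32 (SE), or -0.08 ± 0.20 (SE) without that retina. It was lowest in Wfs1-KO replicate 2, and the other mutant retinas lay within the WT range. The remaining member, Grik2, lay between 11.7 and 21.0 CPM with overlapping genotypes.

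NMDA receptors need glutamate together with a co-agonist, and each contains the subunit encoded by Grin1. Grin1 (chromosome 2, 25291181 to 25319187, minus strand) was at 58.0, 45.4 and 58.7 CPM in WT and at 63.4, 46.2 and 54.5 CPM in mutant retinas. The genotypes overlapped over nearly their whole ranges, and the log2 fold change was 0.02 ± 0.19 (SE), or 0.12 ± 0.16 (SE) without Wfs1-KO replicate 2. Of its exon bases, 29.9% are shared with the antisense gene Grin1os, and the strand setting of the counting was not given in the sources used here, so its reads may include those of that gene. The glutamate-binding subunit gene Grin2b was at 12.7, 24.1 and 28.8 CPM in WT and at 23.9, 31.3 and 26.7 CPM in the mutants. Its lowest retina was WT replicate 1, and the log2 fold change of 0.32 ± 0.31 (SE) became 0.22 ± 0.27 (SE) without Wfs1-KO replicate 2 and -0.06 with WT replicate 1 left out as well. The other genes of that type spanned 9.71 to 18.0 CPM (Grin2a), 3.12 to 5.66 CPM (Grin2c) and 15.7 to 29.2 CPM (Grin2d) over the 6 retinas. None of these 3 had genotypes that separated.

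Grin3a and Grin3b encode glycine-binding subunits that lower calcium entry. Grin3a was at 8.72, 12.5 and 11.5 CPM in WT and at 12.7, 11.6 and 12.5 CPM in mutant retinas, with mutant replicates 1 and 3 just above the highest WT retina. For Grin3a the log2 fold change was 0.17 ± 0.21 (SE), and 0.21 ± 0.19 (SE) without Wfs1-KO replicate 2. Grin3b was at 2.66, 1.24 and 2.67 CPM in WT and at 2.83, 3.53 and 2.16 CPM in the mutants, which overlapped. The log2 fold change was 0.38 ± 0.39 (SE), or 0.20 ± 0.35 (SE) without that retina, on 47 to 292 counts per library.

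The delta receptor gene Grid1 (chromosome 14, 34820108 to 35583379, plus strand) encodes a protein of the glutamate receptor family that organises synapses by binding cerebellins. Its CPM were 25.1, 28.6 and 33.6 in WT and 31.2, 11.6 and 27.9 in mutant retinas. Only Wfs1-KO replicate 2 left the WT range, downwards, and the log2 fold change of -0.30 ± 0.36 (SE) became 0.02 ± 0.16 (SE) without it.

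Among the 6 listed metabotropic glutamate receptor genes, Grm8 had the highest level per length. It encodes a receptor by which terminals sense their own glutamate. Grm8 (chromosome 6, 27275119 to 28134545, minus strand) was at 35.6, 41.0 and 39.5 CPM in WT and at 36.8, 24.5 and 39.3 CPM in Wfs1-KO retinas. Mutant replicates 1 and 3 lay within the WT range and replicate 2 below it, with a log2 fold change of -0.21 ± 0.22 (SE), or -0.03 ± 0.14 (SE) without replicate 2. Grm3 on chromosome 5 was at 0.708, 1.53 and 1.59 CPM in WT and at 1.56, 0.237 and 1.86 CPM in the mutants, on 10 to 161 counts per library. Wfs1-KO replicate 2 was lowest and WT replicate 1 next, and the log2 fold change moved from -0.04 ± 0.72 (SE) to 0.45 ± 0.39 (SE) without Wfs1-KO replicate 2. Of the other members, Grm2, Grm4 and Grm7, which like Grm8 and Grm3 couple to inhibitory G proteins, spanned 15.9 to 23.3, 9.38 to 16.4 and 13.6 to 22.4 CPM. Grm5, which instead mobilises calcium through phospholipase C, spanned 19.3 to 37.6 CPM. For none of these 4 did the genotypes separate, with or without Wfs1-KO replicate 2.

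GABA-A receptors combine alpha, beta and mostly gamma subunits, and the alpha subunit sets where they sit and which drugs they bind. Gabra3 (X chromosome, 72432681 to 72656848, minus strand), the highest of the family's 8 members per length, was at 49.5, 63.2 and 55.6 CPM in WT and at 55.2, 40.8 and 59.2 CPM in mutant retinas. Wfs1-KO replicate 2 was again the lowest and the other mutant values lay within the WT range. The log2 fold change was -0.12 ± 0.20 (SE), and 0.02 ± 0.14 (SE) without that retina.

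Gabra2 and Gabrb2 held the highest and the lowest ratio of a single retina to the mean of the other 5 among the 41 genes, both in Wfs1-KO replicate 2. For this reason the bases just before a transcript start of each in RefSeq are shown, read 5′ to 3′ on the strand of the gene from RefSeq (GRCm38.p6, the assembly of mm10). Capitals mark matches of 3 short motifs searched on both strands: TATAAA (the TATA box), GGGCGG (a GC box) and TAATCC (the core bound by the photoreceptor factor Crx), none of which overlapped another.
Gabra2, chr5:71095850-71096099, minus strand: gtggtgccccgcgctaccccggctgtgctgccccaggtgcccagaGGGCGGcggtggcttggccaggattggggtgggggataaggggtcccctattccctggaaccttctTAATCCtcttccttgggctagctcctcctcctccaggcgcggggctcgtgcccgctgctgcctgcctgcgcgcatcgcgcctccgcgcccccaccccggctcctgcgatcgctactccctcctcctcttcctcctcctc
Gabrb2, chr11:42420190-42420439, plus strand: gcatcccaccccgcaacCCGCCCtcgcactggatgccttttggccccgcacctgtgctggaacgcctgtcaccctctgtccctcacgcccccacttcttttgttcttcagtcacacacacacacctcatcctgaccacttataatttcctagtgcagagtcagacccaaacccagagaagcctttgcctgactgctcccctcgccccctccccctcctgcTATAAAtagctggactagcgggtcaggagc
For Gabrb2 the most upstream of 3 starts in the table was used, which lies downstream of the gene's first base in the count table, 42419757. The Gabra2 stretch held GGGCGG 205 bases and TAATCC 139 bases before the start, while the Gabrb2 stretch held TATAAA 30 bases before the start and GGGCGG on the opposite strand 233 bases before it. Among 32851 promoters of the same length in the table, 12.4% held TATAAA, 32.7% GGGCGG and 6.25% TAATCC. Of the 31 receptor genes with an entry, 4, 18 and 2 held them. These are counts of genes, which had 38 promoters together, whereas the percentages are of promoters. The 2 measures are therefore not alike and were not compared. A match of letters does not show that a factor binds there.

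Gabra2 encodes the alpha2 subunit, found on amacrine and ganglion cells. The gene (chromosome 5, 70957597 to 71095849, minus strand) was at 34.1, 54.0 and 55.2 CPM in WT and at 56.3, 232 and 63.1 CPM in Wfs1-KO retinas. Every mutant retina was above every WT retina, yet mutant replicate 1 cleared WT replicate 3 by 56.3 to 55.2 CPM, and mutant replicate 2 was 4.42 times the mean of the other 5. The log2 fold change was 1.29 ± 0.56 (SE, 95% interval -0.01 to 2.60, adjusted p = 0.979, edgeR's quasi-likelihood test). It was 0.32 ± 0.20 (SE, adjusted p = 0.966, same test) without mutant replicate 2. With DESeq2 the unadjusted p was 0.0147 and the adjusted p 0.832.

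Gabrb2, which encodes the beta2 subunit, had very few counts in the same library. The gene (chromosome 11, 42419757 to 42629028, plus strand) was at 15.9, 38.0 and 34.2 CPM in WT and at 35.1, 0.568 and 35.6 CPM in mutant retinas. Wfs1-KO replicate 2 had 24 counts against 602 to 3621 in the other libraries, or 0.0179 times their mean, while the other mutant retinas lay within the WT range. Without it the log2 fold change was 0.27 ± 0.29 (SE), against -0.30 ± 1.07 (SE, 95% interval -2.81 to 2.21) with all 6 retinas. WT replicate 1 was the next lowest.

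The other GABA-A members stayed closer together. Gabra5, the alpha subunit of many extrasynaptic receptors and the lowest of the 41 genes per length, was at 0.677, 0.757 and 0.795 CPM in WT and at 0.912, 0.852 and 0.954 CPM in mutant retinas. These values rest on 14 to 94 counts, and although the genotypes did not overlap, the log2 fold change was 0.29 ± 0.35 (SE), or 0.33 ± 0.37 (SE) without Wfs1-KO replicate 2. Gabra4 on chromosome 5 was at 9.17, 13.1 and 8.97 CPM in WT and at 11.5, 7.81 and 14.3 CPM in the mutants, with the mutants both highest and lowest. The fitted log2 fold change was 0.10 ± 0.28 (SE), and 0.29 ± 0.21 (SE) without that retina. The gamma subunit gene Gabrg3 was at 11.0, 17.7 and 14.9 CPM in WT and at 17.8, 12.3 and 18.4 CPM in the mutants. Mutant replicates 1 and 3 were just above the highest WT retina, and its log2 fold change of 0.16 ± 0.26 (SE) became 0.32 ± 0.20 (SE) without replicate 2 but -0.01 without WT replicate 1. Gabrb1 and Gabrg1, both on chromosome 5, spanned 9.15 to 19.2 and 6.75 to 14.3 CPM with overlapping genotypes.

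Some GABA-A genes lie in clusters, which allows the high Gabra2 value to be compared along the chromosome. On chromosome 5, Gabrg1, Gabra2, Gabra4 and Gabrb1 follow each other. Around the 4.42-fold value of Gabra2 in Wfs1-KO replicate 2, the ratios to the mean of the other 5 retinas were 0.661 for Gabrg1, 0.685 for Gabra4 and 1.29 for Gabrb1, so the neighbours did not share its high value. No cause of the departures of Gabra2 and Gabrb2 was tested.

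**Figure D3:**
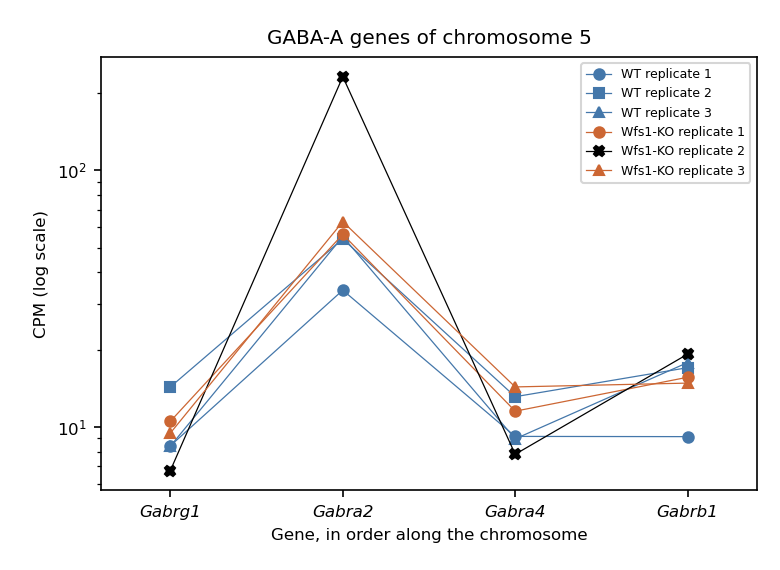
CPM on a log scale of the GABA-A genes of chromosome 5 in the order in which they lie on the chromosome, with 1 line per retina. The black line of Wfs1-KO replicate 2 leaves the others upwards at Gabra2, with 232 CPM against 34.1 to 63.1 CPM, and not at the genes beside it.

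The rho genes encode slow GABA channels of bipolar cell terminals. Gabrr1 (chromosome 4, 33132521 to 33163588, plus strand) was at 106, 117 and 112 CPM in WT and at 106, 86.4 and 112 CPM in mutant retinas. Only Wfs1-KO replicate 2 lay below the WT range, and the log2 fold change was -0.14 ± 0.17 (SE), or -0.04 ± 0.13 (SE) without it. Its neighbour Gabrr2 stayed between 62.7 and 72.1 CPM in all 6 retinas, with a log2 fold change of 0.05 ± 0.15 (SE) and a 95% interval from -0.30 to 0.40, and -0.02 ± 0.12 (SE) without Wfs1-KO replicate 2. Gabrr3 was at 28.0, 42.2 and 32.0 CPM in WT and at 39.1, 17.5 and 36.6 CPM in the mutants, lowest in Wfs1-KO replicate 2 and otherwise within the WT range. Its log2 fold change moved from -0.13 ± 0.33 (SE) to 0.15 ± 0.18 (SE) without that retina.

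GABA-B receptors are obligate pairs of the GABA-binding product of Gabbr1 and the G protein-coupling product of Gabbr2, and both genes were lowest in Wfs1-KO replicate 2. Gabbr1 (chromosome 17, 37045966 to 37075067, plus strand) was at 242, 249 and 240 CPM in WT and at 257, 142 and 257 CPM in mutant retinas. Mutant replicates 1 and 3 were above all 3 WT retinas by a small margin, and replicate 2 was far below them. The log2 fold change was -0.16 ± 0.25 (SE), and 0.07 ± 0.12 (SE) without replicate 2. Gabbr2 (chromosome 4, 46662305 to 46991873, minus strand) was at 77.0, 89.9 and 97.4 CPM in WT and at 93.2, 40.4 and 94.4 CPM in the mutants, of which replicates 1 and 3 lay within the WT range. Its log2 fold change was -0.21 ± 0.33 (SE), and 0.09 ± 0.14 (SE) without replicate 2. Relative to the mean of the other 5 retinas, Wfs1-KO replicate 2 had 0.572 of Gabbr1 and 0.447 of Gabbr2.

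Glycine receptors combine an alpha subunit from Glra1 to Glra4 with the beta subunit of Glrb, which anchors the receptor to gephyrin. Glra1 (chromosome 11, 55514238 to 55608198, minus strand), the alpha subunit that prevails in the adult spinal cord and serves fast glycine synapses in the retina, was at 6.31, 9.98 and 11.7 CPM in WT. In mutant retinas Glra1 was at 12.1, 36.1 and 14.1 CPM. Every mutant retina was above every WT retina, with WT replicate 3 and mutant replicate 1 separated by 11.7 to 12.1 CPM, and mutant replicate 2 was 3.33 times the mean of the other 5. The log2 fold change was 1.16 ± 0.46 (SE, 95% interval 0.08 to 2.24) with an unadjusted p of 0.0389 and an adjusted p of 0.979 in edgeR's quasi-likelihood test. Without mutant replicate 2 it was 0.50 ± 0.24 (SE, 95% interval -0.03 to 1.03), with an unadjusted p of 0.0641 and an adjusted p of 0.962 in the same test.

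The alpha subunit genes Glra2, Glra3 and Glra4 did not share the high value of Glra1 in Wfs1-KO replicate 2. Glra4, on the X chromosome, was at 2.74, 3.07 and 2.67 CPM in WT and at 3.56, 0.592 and 3.95 CPM in mutant retinas, on 25 to 367 counts. Mutant replicates 1 and 3 were above and replicate 2 below every WT retina, so that the log2 fold change moved from -0.06 ± 0.61 (SE) to 0.40 ± 0.23 (SE) without replicate 2. Glra2, also X-linked, spanned 20.5 to 28.9 CPM, and Glra3 spanned 30.6 to 62.8 CPM, each with overlapping genotypes. The beta subunit gene Glrb (chromosome 3, 80843599 to 80913660, minus strand) was at 74.7, 107 and 75.9 CPM in WT and at 89.6, 63.4 and 93.2 CPM in the mutants. It was lowest in Wfs1-KO replicate 2, with a log2 fold change of -0.07 ± 0.23 (SE), or 0.08 ± 0.17 (SE) without that retina, when the mutant values lay within the WT range.

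Across the families, the receptor genes were mostly lower in Wfs1-KO replicate 2. In that retina 30 of the 41 genes were below the mean of the other 5, beside 50.3% of all genes tested. Its median ratio to that mean was 0.722, beside 0.995 over all genes tested. It was the lowest of the 6 for 24 of the 41 genes and the highest for 9. The share of all genes that were lowest or highest in a retina was not counted, here or for the lists below. The median ratio was below 1 in each of the 9 families, from 0.396 for Grid1 to 0.826 for the NMDA genes. At 2-fold or more, 2 of the 41 genes were above the mean of the other 5, Gabra2 and Glra1, and 8 were below, Gabrb2, Grm3, Glra4, Grid1, Gria4, Gabbr2, Grik3 and Gabrr3. Over all genes tested 17.2% were at least 2-fold above and 14.1% at least 2-fold below. Grik3 and Gabrr3, at 0.483 and 0.492, were just past that limit. Over all genes these ratios fell with exon length (Spearman correlation across genes -0.384), while across the 41 genes the correlation was 0.015. These are correlations over genes of the same libraries. In WT replicate 1, whose median ratio was 0.871 beside 0.960 over all genes, 11 of the 41 genes were lowest. Gabra2, Glra1 and Grin2b were there at least 2-fold below the mean of the other 5, beside 5.92% of all genes, and for Gabra2 and Glra1 that mean includes the high Wfs1-KO replicate 2.

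**Figure D4:**
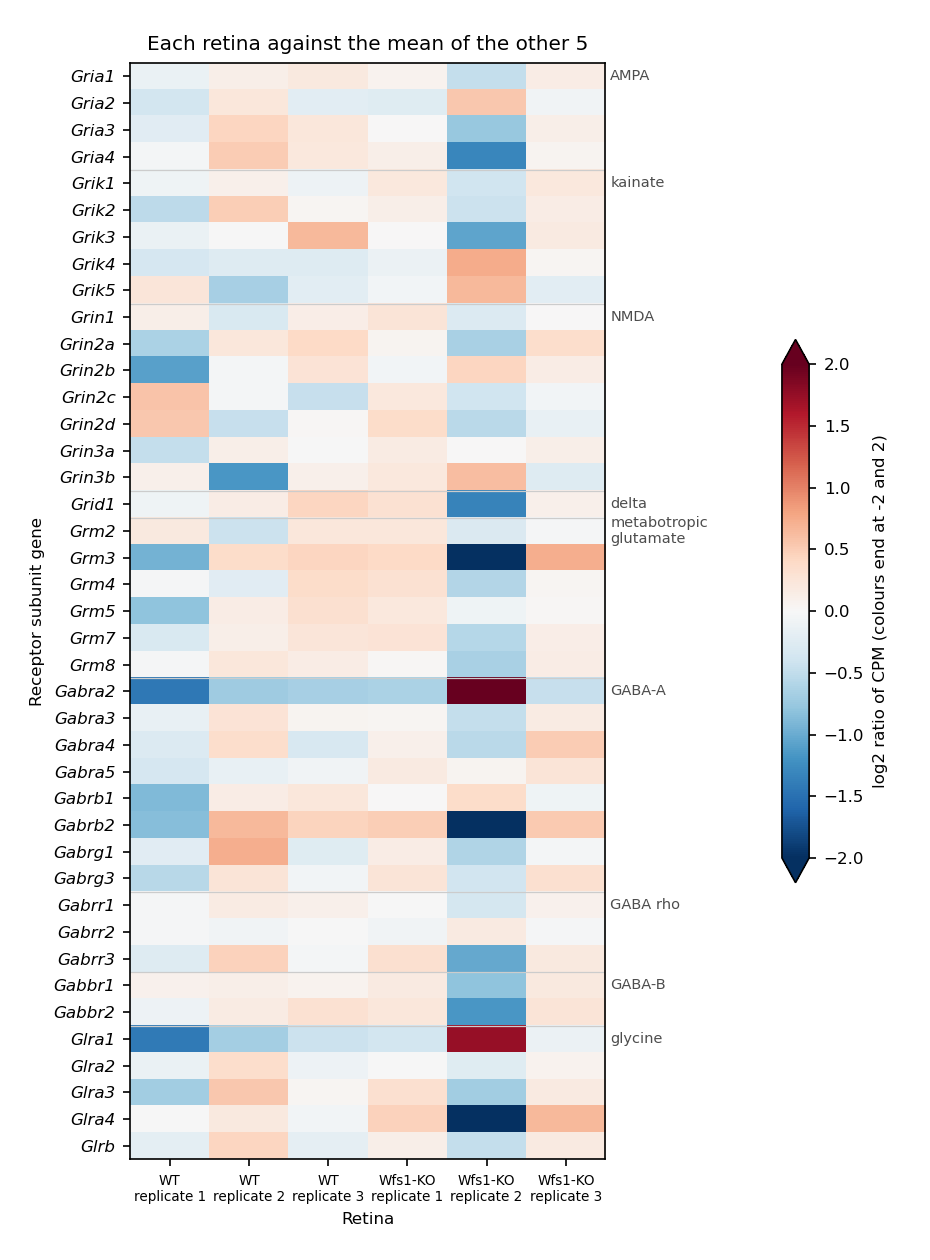
Log2 ratio of each retina's CPM to the mean of the other 5, with 1 row per receptor gene and 1 column per retina (red above 0, blue below 0, colours ending at -2 and 2). The column of Wfs1-KO replicate 2 is mostly blue, with dark red at Gabra2 and Glra1, and the column of WT replicate 1 is mostly pale blue.

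Subunit composition was described by 5 shares of the level per length within a retina, which do not depend on library size. The share of Gria2 among Gria1 to Gria4 was 22.9%, 24.3% and 21.3% in WT and 22.3%, 43.5% and 23.7% in mutant retinas. Its means were 22.8% ± 1.5 and 29.8% ± 11.9 (SD, n = 3 each; exact two-sided permutation test, p = 0.5), and without Wfs1-KO replicate 2 the mutant mean was 23.0%. The mutant retinas other than replicate 2 thus lay within the WT range.

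The share of Glra1 among Glra1 to Glra4 was 16.5%, 16.8% and 23.4% in WT and 21.8%, 56.5% and 24.6% in the mutants. Only Wfs1-KO replicate 2 stood clear of the rest, and the means were 18.9% ± 3.91 and 34.3% ± 19.3 (SD, n = 3 each; exact two-sided permutation test, p = 0.2). Without that retina the mutant mean was 23.2% (exact test, p = 0.3). The 3 rho genes together made up 75.2%, 68.0% and 69.8% of the summed GABA-A and rho members in WT and 68.5%, 58.4% and 67.8% in the mutants, which were lowest in replicate 2 (exact two-sided permutation test, p = 0.2). The difference of the means, mutant minus WT, was -6.13 percentage points, and -2.88 without that retina (exact test, p = 0.5).

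Grin2a made up 15.8% ± 5.62 of the Grin2a to Grin2d total in WT and 15.0% ± 3.13 in mutant retinas (SD, n = 3 each; exact two-sided permutation test, p = 0.9). Grm7 and Grm8 made up 57.1% ± 3.07 and 54.0% ± 2.96 of the metabotropic members (SD, n = 3 each; exact test, p = 0.3). In both, the genotypes overlapped. Without Wfs1-KO replicate 2 the mutant means were 16.2% (exact test, p = 0.9) and 55.5% (exact test, p = 0.5). Adjusted over the 5 shares, p lay between 0.5 and 0.9, and 3 against 3 retinas cannot go below an exact p of 0.1.

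**Figure D5:**
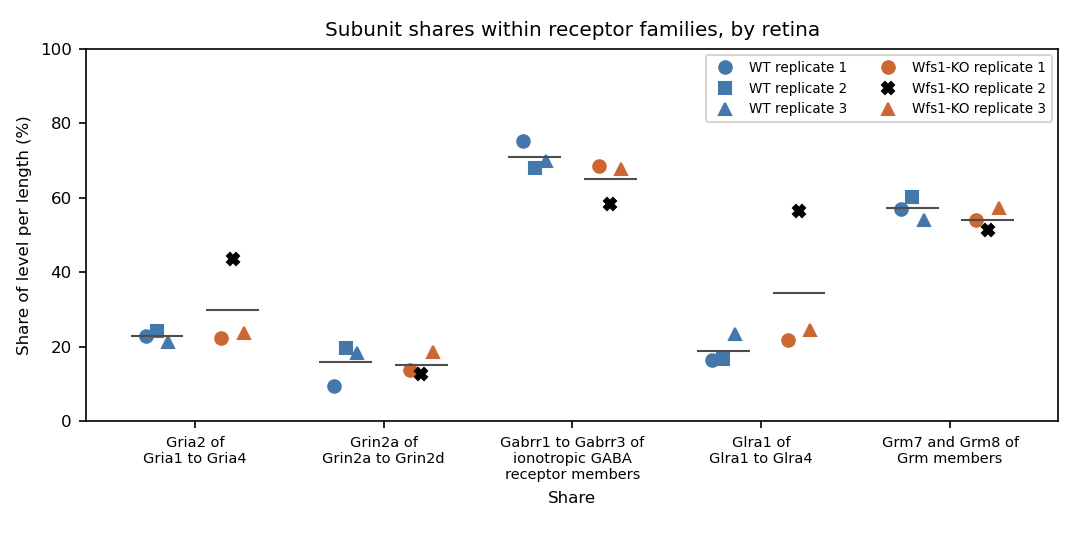
Shares of the level per length within receptor families, in percent, with 1 symbol per retina, WT on the left and Wfs1-KO on the right of each pair, and the mean of each genotype as a line. Wfs1-KO replicate 2 (black cross) raises the mutant mean for Gria2, at 43.5%, and Glra1, at 56.5%, while the other mutant retinas lie within or next to the WT values.

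Other genes of the same synapses, in 3 lists, also gave 0 genes past the threshold, with or without Wfs1-KO replicate 2. The 18 genes for transmitter synthesis, vesicle loading and uptake had a median log2 fold change of -0.09 with all 6 retinas and 0.01 without Wfs1-KO replicate 2, and 1 of them, Glul, which makes glutamine from glutamate in Mueller glia, was lower at an unadjusted p under 0.05. Their summed level in Wfs1-KO replicate 2 was 5320 CPM, below the 7570 to 8550 CPM of the other 5, with 11 of 18 genes lowest there. The 26 auxiliary subunit genes had medians of -0.04 and 0.02, and the 32 postsynaptic scaffold genes had medians of -0.06 and 0.07. In the auxiliary and scaffold lists 0 genes had an unadjusted p under 0.05 in either fit. Among the 18 synthesis and uptake genes 2 were lower at that level without Wfs1-KO replicate 2. Of all genes 2.39% were lower at that level in that fit, and 0.566% with all 6 retinas.

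In Wfs1-KO replicate 2 more of these genes were lowest than highest of the 6 retinas, as for the receptor genes. Of the 26 auxiliary genes 13 were lowest there and 7 highest, and of the 32 scaffold genes 17 were lowest and 7 highest. The summed scaffold genes were at 2660 CPM there, below the 3180 to 3420 CPM of the other 5. The summed auxiliary genes were at 1440 CPM there and at 1340 to 1430 CPM in the other 5. In both of these lists the 2 genes with the smallest p in the comparison of genotypes were among those highest there. Cacng4 and Cacng2, which encode auxiliary subunits that traffic AMPA receptors, were at 229 and 127 CPM in Wfs1-KO replicate 2 against at most 83.2 and 42.3 CPM elsewhere. Their log2 fold changes were 0.71 ± 0.44 (SE) and 0.81 ± 0.46 (SE), and -0.04 and 0.02 without that retina. The scaffold genes Dlgap1 and Lrrtm4, whose products organise glutamate synapses, were at 201 and 20.5 CPM there against 84.7 to 108 and 6.02 to 8.22 CPM.

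The cells that carry the receptors were represented in every library. Summed markers of bipolar cells were at 1840 CPM in Wfs1-KO replicate 2 and at 1690 to 2120 CPM in the other 5, and those of amacrine cells at 1700 CPM and 1570 to 1620 CPM. Horizontal cell markers were at 542 CPM there and at 457 to 497 CPM elsewhere, and ganglion cell markers at 1550 CPM and 1030 to 1400 CPM. Within the lists the genes went both ways in that library, where 5 of 12 amacrine cell markers were highest and 6 lowest of the 6 retinas, 2 of 12 bipolar cell markers highest and 5 lowest, 6 of 12 ganglion cell markers highest and 3 lowest, and 2 of 6 horizontal cell markers highest and 2 lowest. Their part in the receptor values was not tested. In edgeR's test 0 of the markers of these 4 lists passed the threshold with all 6 retinas. At an unadjusted p under 0.05, 1 ganglion cell marker was lower, beside 0.566% of all genes. Without Wfs1-KO replicate 2, 3 ganglion cell markers were lower and 1 bipolar cell marker was higher at that level. The shares of all genes in that fit were 2.39% lower and 2.80% higher. The median log2 fold change of the ganglion cell markers was -0.10 with all 6 retinas and -0.24 without Wfs1-KO replicate 2. That of the bipolar cell markers was 0.11 and 0.22. Without that retina 4 of 10 rod, 6 of 12 pigment epithelium and 2 of 10 Mueller glia markers were also lower at that level. In these 3 lists 0 were higher, while 2 of 7 tested lens markers were higher.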

How the data were processed

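RNA of whole retinas was sequenced for 3 WT and 3 Wfs1-KO samples. The submitters' processing notes name Trimmomatic 0.39, STAR 2.5.3a, featureCounts 1.6.4 and mm10, while the study's methods name other versions of Trimmomatic and STAR. The authors counted reads on exons and deposited whole-number counts per gene without normalization, beside each gene's exon length. Library columns carry a letter and a number, read here as control or Wfs1 and the replicate, and 2 of the 8 library columns matched no listed sample and were not used.

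The genotype comparison was run on the counts with edgeR 4.0.16 under R 4.3.3 (TMM factors, default low-count filter, quasi-likelihood test, genotype as the only term, Benjamini-Hochberg adjustment over all genes tested, threshold 0.05). A standard error is the log2 fold change divided by the square root of its F statistic. CPM used the TMM factors, RPKM divided CPM by exon length, and shares used RPKM. The floor was 3 counts, and it covers counting error only. The edgeR script was tested on simulated counts. Alternatives were DESeq2 1.42.0, limma 3.58.1 (voom, with and without library weights), RLE and upper-quartile factors, no filter, at least 10 counts in every retina, a replicate block, an exon length correction and each retina left out. Wfs1-KO replicate 2 was left out together with each WT retina after values were seen.

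Genes given in full were the highest listed gene per length of each family and the 10 with the smallest p in each fit. Those whose genotypes did not overlap, and those at least 2-fold away in Wfs1-KO replicate 2, were also given in full. The members, lists and tests were chosen with earlier results of these data known. Promoter sequences came from RefSeq. Some further receptor genes are not reported here.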

Additional observations from a re-analysis of the deposited data

How the results depend on the processing

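In all settings run, 0 of the 41 receptor genes and 0 genes of the 3 other synaptic lists passed the threshold, and the smallest adjusted p of a receptor gene was 0.605. Over all genes, 2 passed in the reported fit, against 49 with DESeq2, 35 with voom and library weights, 9 without a filter, 6 with the length correction, 1 with the replicate block, 95 with DESeq2 without Wfs1-KO replicate 2, 16, 8 and 16 without Wfs1-KO replicate 2 and WT replicate 1, 2 or 3, and 0 to 24 when each retina was left out, the 24 without Wfs1-KO replicate 2 and the 0 without WT replicate 1, 2 or 3. Receptor genes at an unadjusted p under 0.05 numbered 1 in the reported fit, 2 with DESeq2, without a filter or with the length correction, 0 with voom with or without library weights, 0, 3 and 1 without these pairs of retinas, and 0 to 2 with each retina left out. Of the marker genes 0 passed, against 1 with library weights, 1 without WT replicate 1 and Wfs1-KO replicate 2, 4 with DESeq2 without Wfs1-KO replicate 2, and 0 to 1 with each retina left out, the 1 being without Wfs1-KO replicate 2. The median log2 fold change of the 41 genes was -0.06 and ranged from -0.15 to 0.19, positive with library weights, without WT replicate 2 and in every fit without Wfs1-KO replicate 2. The 0.19, without WT replicate 2 and Wfs1-KO replicate 2, differed from it by more than the spread of the median between retinas, 0.235, and the others by less.

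Of the 26 genes given in full, 19 changed sign in at least 1 of 19 alternatives, 9 of them without Wfs1-KO replicate 2, and none was past the threshold. DESeq2 without that retina gave 0.02 for Grid1 and Gabra3, 0.45 for Grm3, 0.27 for Gabrb2, 0.15 for Gabrr3, 0.07 for Gabbr1, 0.09 for Gabbr2, 0.40 for Glra4 and 0.08 for Glrb. Library weights gave 0.35 for Grm3, 0.0018 for Gabra3, 0.16 for Gabrb2, 0.15 for Gabrr3, 0.07 for Gabbr1, 0.02 for Gabbr2, 0.34 for Glra4 and 0.12 for Glrb, and no filter gave -0.0032 for Grin1. With 1 retina left out, or Wfs1-KO replicate 2 together with a WT retina, the log2 fold changes ranged from -0.41 to 0.04 for Gria3, -0.04 to 0.25 for Grik1, -0.53 to 0.13 for Grik3, -0.14 to 0.50 for Grik5, -0.10 to 0.19 for Grin1, -0.06 to 0.55 for Grin2b, -0.10 to 0.55 for Grin3b, -0.56 to 0.13 for Grid1, -0.46 to 0.65 for Grm3, -0.34 to 0.01 for Grm8, -0.23 to 0.11 for Gabra3, -0.11 to 0.49 for Gabra4, -0.71 to 0.52 for Gabrb2, -0.01 to 0.49 for Gabrg3, -0.33 to 0.33 for Gabrr3, -0.29 to 0.08 for Gabbr1, -0.40 to 0.16 for Gabbr2, -0.43 to 0.46 for Glra4 and -0.17 to 0.27 for Glrb. The cause was not tested. The Grin2a share, -0.753 percentage points in mutant against WT retinas, ranged from -3.97 to 1.19 with each retina left out, positive without WT replicate 2, WT replicate 3 or Wfs1-KO replicate 2. The 5 shares kept their directions with counts not divided by length.

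With the replicate block, which used the shared numbers of the labels, the median of the 41 genes was -0.06 and no receptor gene passed. Deviations of same-numbered retinas correlated at -0.234, -0.111 and 0.0784 for numbers 1, 2 and 3. Those of retinas with different numbers ranged from -0.239 to 0.272. Each deviation was taken from a mean of only 3 retinas, so these values cannot tell whether the numbers pair the retinas. The depth of WT replicate 3, with 17916885 counts, limits Gabra5 and Grm3 most, at 14 and 28 counts there. No analysis was made within batches, since the labels name none.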
